A study of Homo sapiens with 6 samples.

Results

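The genes described here encode proteins of 4 DNA repair routes: mismatch repair, base excision repair with single-strand break repair, nucleotide excision repair and end joining. They were chosen as a list of 37 gene symbols for these routes, and each symbol matched 1 row of the 61552 genes in the deposited table. SKOV3, an established human ovarian cancer line, was exposed to 1 µM fenbendazole (libraries 7, 8 and 9) or to the vehicle DMSO (libraries 10, 11 and 12) over 48 h. Fenbendazole is a benzimidazole used against parasitic worms that binds tubulin. Poly(A) RNA was sequenced from 3 libraries per group, and nothing in the labels marks these as separate cultures. The p-values below then reflect library-to-library spread alone, which may be technical. All libraries come from 1 cell line, and the labels name no allele, transgene or other agent.

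Cells mend different kinds of DNA damage with different sets of enzymes. Mismatch repair finds wrongly paired bases left by replication, base excision repair removes single damaged bases with glycosylases and closes the nick, nucleotide excision repair cuts out a stretch that holds a bulky lesion, and end joining ligates the ends of broken chromosomes. In dividing cells some of these genes are expressed mainly around S phase, among them the uracil glycosylase UNG, the glycosylase NEIL3 and the polymerase POLQ, while others are expressed at all stages. Repair genes are of interest in ovarian carcinoma because inhibitors of PARP1 and PARP2 are used to treat it.

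With fenbendazole 4 of the 37 genes rose and 0 fell: POLQ 5.44-fold, XRCC4 3.68-fold, NEIL3 3.51-fold and PARP2 2.15-fold. By edgeR's quasi-likelihood test with Benjamini-Hochberg adjustment over 17363 genes, at a threshold of 0.05, 10.8% of the repair genes and 4.03% of all genes were called, and the share over all genes splits into 3.11% that rose and 0.921% that fell. The calls lay in 2 routes. Of 13 base excision repair genes 2 rose (NEIL3 and PARP2), of 8 end joining genes 2 rose (XRCC4 and POLQ), and 0 of 5 mismatch repair and 0 of 11 nucleotide excision repair genes passed the threshold. All 37 passed the filter on low counts, at an unadjusted p of 0.05 the test gave 11 of them and 3699 of all 17363 genes, and none was close to silent: the lowest mean was 5.85 CPM (DDB2; CPM are counts per 1000000 of the library on the TMM scale). The lowest single value was 61 counts.

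Libraries held 13170775 to 22128930 counts, so that 3 counts correspond to 0.132 to 0.223 CPM. DMSO 11 stood apart: its median absolute log2 difference from the other libraries over tested genes was 0.524 to 0.640, against 0.148 to 0.331 among the other 5. Without it 22.3% of genes passed the threshold, 13.1% higher and 9.23% lower. Of 7 epithelial and lineage markers, among them ERBB2, KRT8, EPCAM and PAX8, every one was detected, with a summed level of 5280 to 5830 CPM with fenbendazole and 8740 to 17400 CPM in DMSO. Most of that sum was ERBB2 (4224 to 4632 CPM with fenbendazole and 7806 to 15880 CPM in DMSO), while KRT7 stood at 224.7 to 230.6 CPM with fenbendazole and 71.3 to 182.5 CPM in DMSO. The summed level of 5 leukocyte markers was at most 1.66 CPM with fenbendazole and 0.967 CPM in DMSO, with CD3E at 0 in every library. For 5 fibroblast genes, which this line also expresses in part, it was 60.8 to 63.1 CPM with fenbendazole and 58.3 to 100 CPM in DMSO, and for 3 endothelial genes 12 to 13 CPM with fenbendazole and 9.70 to 11.6 CPM in DMSO. The proliferation marker MKI67 stood at 763.9 ± 14.4 CPM with fenbendazole and 137.1 ± 36 CPM in DMSO (SD, n = 3 each). Its part in the repair gene results was not tested. In bulk RNA, more cells in a cycle phase and more RNA per cell cannot be told apart.

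The region around the start site is shown for the 4 genes that rose. Each line runs from 120 bases before to 30 bases after the RefSeq start (GRCh38.p14), in the direction of transcription. Capitals mark letters of 3 motifs searched on both strands: E2F sites (TTTCCCGC, TTTCGCGC, TTTGCCGC or TTTGGCGC), the cell cycle homology region (TTTGAA or TTCGAA) and the CCAAT box (CCAAT).
POLQ (chr3:121545959-121546108, minus strand): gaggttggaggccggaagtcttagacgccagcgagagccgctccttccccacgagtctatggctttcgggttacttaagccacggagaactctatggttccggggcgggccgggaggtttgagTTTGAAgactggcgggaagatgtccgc
XRCC4 (chr5:83077427-83077576, plus strand): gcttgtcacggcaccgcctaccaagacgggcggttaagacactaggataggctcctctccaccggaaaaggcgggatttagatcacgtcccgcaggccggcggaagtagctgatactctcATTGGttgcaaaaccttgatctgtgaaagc
NEIL3 (chr4:177309754-177309903, plus strand): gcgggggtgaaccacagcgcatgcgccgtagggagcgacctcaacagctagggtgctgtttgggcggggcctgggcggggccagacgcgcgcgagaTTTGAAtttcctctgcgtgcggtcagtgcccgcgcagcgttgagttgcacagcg
PARP2 (chr14:20343515-20343664, plus strand): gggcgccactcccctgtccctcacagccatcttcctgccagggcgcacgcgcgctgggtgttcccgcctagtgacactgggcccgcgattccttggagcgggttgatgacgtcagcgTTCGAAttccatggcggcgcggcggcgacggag
POLQ and NEIL3 hold TTTGAA and PARP2 holds TTCGAA within 30 bases of the start, while XRCC4 holds a CCAAT box read on the other strand. RefSeq promoter windows of 300 bases were matched for 33 of the 37 genes. Among those, 9 (27.3%) held a cell cycle homology region anywhere in a window, against 19.5% of 27305 genes, and 4 (12.1%; DDB2, NEIL3, PARP2 and POLQ) held it within 30 bases of a start, against 4.02%. That distance was chosen after the sequences were seen. E2F letters stood in 6 genes (18.2%; MSH3, MSH6, PMS2, UNG, XPC and XRCC6), against 3.99% of the same 27305 genes. A CCAAT box stood in 18 (54.5%), against 39.7%. The 27305 genes are all those with such a window, whether or not they were tested here. A gene counted if any of its windows matched, and the number of windows per gene was unequal. These matches are letters in a window, not sites shown to be bound.

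**Figure D1:**
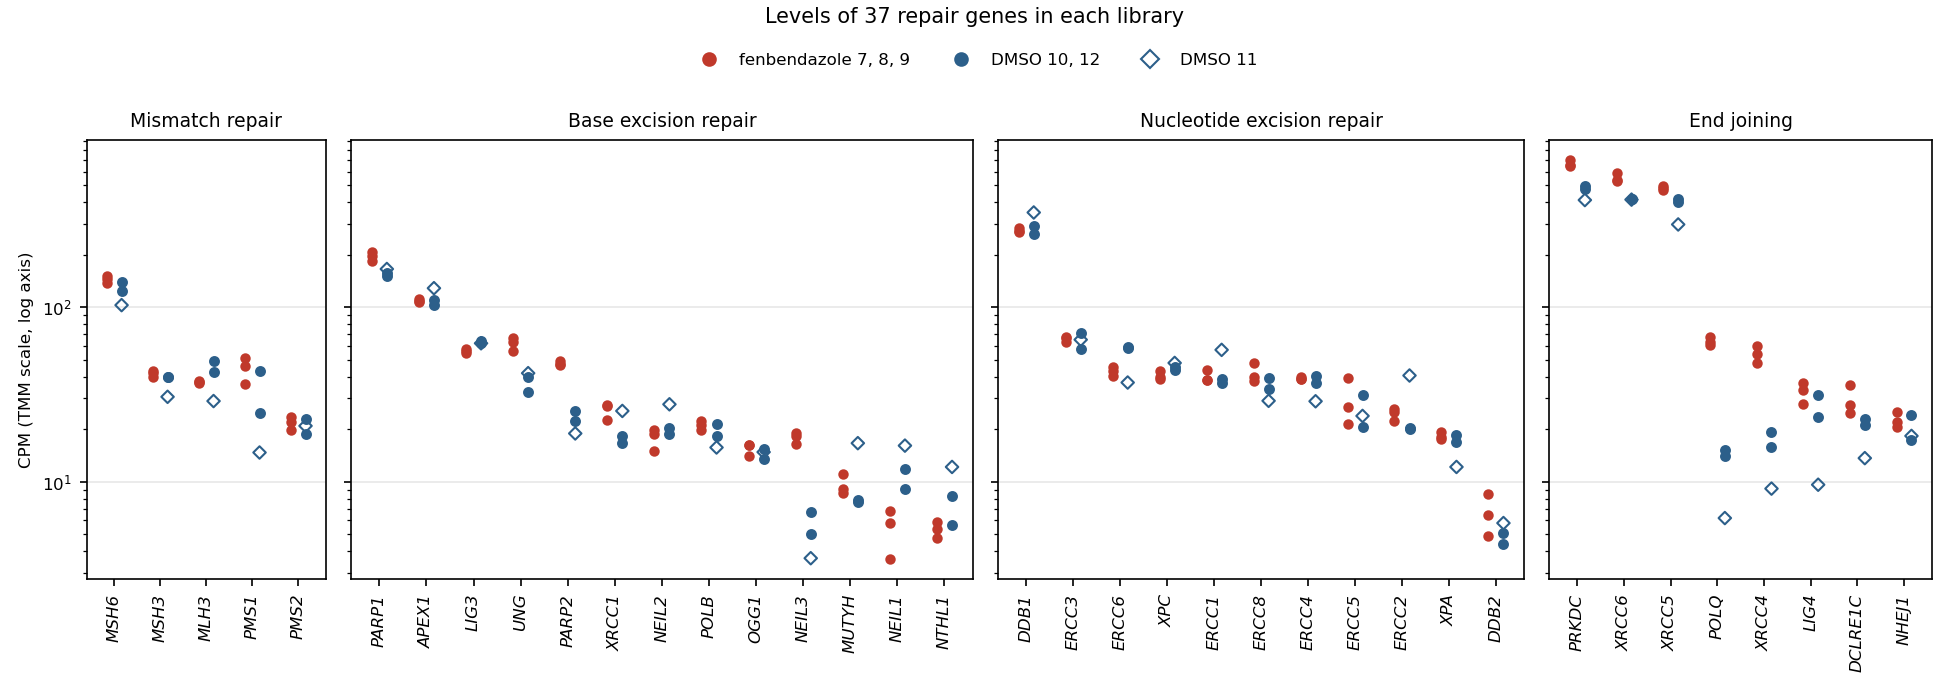
Level of each of the 37 genes in each library, in CPM on a log axis, by repair route and ordered by mean level. Red points are the 3 fenbendazole libraries, filled blue points DMSO 10 and 12, and open diamonds DMSO 11. POLQ, XRCC4, NEIL3 and PARP2 stand apart between the groups, and nucleotide excision repair genes mostly overlap.

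Compared per length, on the deposited scale of fragments per kilobase and 1000000 mapped fragments (FPKM), the DNA-end binding pair was the most abundant of the set. XRCC6, which encodes Ku70, stood at 212.1, 227.8 and 185.3 FPKM with fenbendazole 7, 8 and 9, against 165.5, 177.1 and 165.9 FPKM in DMSO 10, 11 and 12. XRCC5, which encodes its partner Ku80, stood at 121.0, 123.4 and 120.3 FPKM with fenbendazole and 107.0, 81.3 and 106.6 FPKM in DMSO. Next came APEX1, the main endonuclease that cuts at abasic sites, with 69.3, 67.2 and 64.2 FPKM with fenbendazole and 70.0, 85.2 and 65.2 FPKM in DMSO. XRCC6 lay above XRCC5 in every library, and XRCC5 lay above APEX1 in every library but DMSO 11.
At the low end NHEJ1, which encodes the end joining factor XLF, averaged 3.27 ± 0.407 FPKM with fenbendazole and 2.73 ± 0.574 FPKM in DMSO (SD, n = 3 each). DDB2, a damage sensor of nucleotide excision repair, averaged 3.29 ± 0.689 FPKM with fenbendazole and 3.16 ± 0.487 FPKM in DMSO, so these neighbours in the order did not differ beyond their spread. POLQ was the lowest gene of the set in DMSO, at 1.23 ± 0.441 FPKM, and stood at 6.6 ± 0.330 FPKM with fenbendazole. The single libraries gave 2.87, 3.68 and 3.24 FPKM with fenbendazole and 3.28, 2.77 and 2.13 FPKM in DMSO for NHEJ1. For DDB2 they gave 3.75, 2.50 and 3.62 FPKM with fenbendazole and 3.13, 3.66 and 2.69 FPKM in DMSO, and for POLQ 6.97, 6.45 and 6.36 FPKM with fenbendazole and 1.53, 0.724 and 1.44 FPKM in DMSO.

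Of the 8 listed end joining genes 8 had positive log2 fold changes, against 7817 of all 17363 genes tested. Their median was 0.57, against -0.058 over all genes. It was 0.43 without DMSO 11 (-0.0073 over all genes) and 0.41 with offsets for GC content and length (-0.0465). Of 15 further end joining genes outside the list, 7 had positive and 8 negative values. POLQ encodes polymerase theta, which joins ends through short stretches of homology (ENSG00000051341, GRCh38 chromosome 3, 121431431 to 121545988, minus strand). It stood at 67.6, 63.2 and 60.8 CPM with fenbendazole 7, 8 and 9, against 15.1, 6.19 and 14.1 CPM in DMSO 10, 11 and 12. Every fenbendazole library lay above every DMSO library, and DMSO 11 was the lowest. The log2 fold change was 2.45 ± 0.325 (SE, adjusted p = 0.00865), and 2.14 without DMSO 11. XRCC4 encodes the scaffold that holds DNA ligase IV at the break (ENSG00000152422, chromosome 5, 83077498 to 83353787, plus strand). Its levels were 53.8, 47.8 and 60.3 CPM with fenbendazole and 15.8, 9.13 and 19.3 CPM in DMSO. The groups lay far apart here too, with DMSO 11 again the lowest. XRCC4 changed by 1.88 ± 0.279 on the log2 scale (adjusted p = 0.0126), and by 1.63 without DMSO 11. TMEM167A, which overlaps it by 366 bases on the opposite strand, stood at 180.4 CPM with fenbendazole and 133.4 CPM in DMSO (log2 fold change 0.44, adjusted p = 0.278), and the labels do not say whether strand was kept.

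The other proteins of classical end joining differed less in RNA. PRKDC encodes the catalytic subunit of the kinase DNA-PK, which Ku recruits to the break. It stood at 643.0, 655.7 and 702.0 CPM with fenbendazole, against 494.7, 411.9 and 475.0 CPM in DMSO, with no overlap between groups. Its log2 fold change was 0.53 ± 0.121 (adjusted p = 0.0564), which did not pass the threshold, and 0.47 (adjusted p = 9.40e-05) without DMSO 11. For XRCC6 the levels were 540.0, 589.5 and 533.1 CPM with fenbendazole and 415.1, 414.3 and 415.4 CPM in DMSO. The DMSO libraries lay almost on 1 value, and the log2 fold change was 0.42 ± 0.108 (adjusted p = 0.0814; 0.000295 without DMSO 11). XRCC5 stood at 471.6, 498.3 and 482.3 CPM with fenbendazole and 416.7, 298.5 and 404.0 CPM in DMSO. Its log2 fold change was 0.38 ± 0.151 (adjusted p = 0.21), and 0.25 (adjusted p = 0.00849) without DMSO 11, where DMSO 10 and 12 alone were the controls.
DCLRE1C encodes Artemis, the nuclease that opens hairpin ends. Its levels were 27.5, 24.8 and 35.8 CPM with fenbendazole and 21.1, 13.7 and 22.9 CPM in DMSO, and its log2 fold change was 0.61 ± 0.247 (adjusted p = 0.211). SUV39H2, on the opposite strand over 6957 of its bases, differed by 1.10 on the log2 scale (adjusted p = 0.0529). LIG4, the ligase that XRCC4 holds, stood at 36.9, 27.7 and 33.7 CPM with fenbendazole and 23.6, 9.61 and 31.6 CPM in DMSO. The groups overlapped for LIG4, whose log2 fold change was 0.61 ± 0.391 (adjusted p = 0.402), with 0.26 without DMSO 11 and 0.99 without DMSO 12. The log2 value of NHEJ1 was 0.17 ± 0.193 (adjusted p = 0.634), and its groups overlapped as well. The binding partners XRCC4, LIG4 and NHEJ1 thus had unequal log2 fold changes, but the differences between them were not tested.

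**Figure D2:**
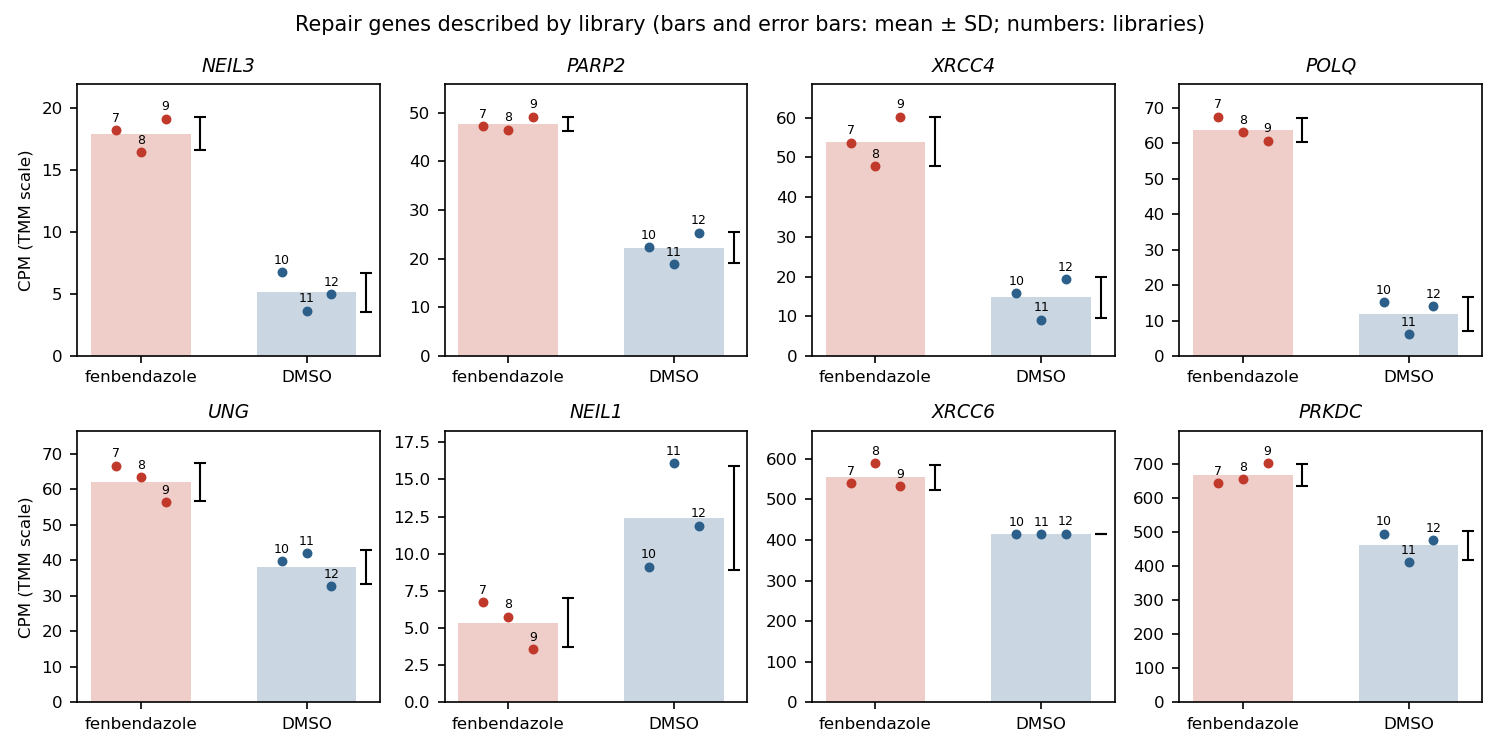
Level of 8 repair genes in each library, in CPM on a linear axis from 0, fenbendazole left and DMSO right. Bars and the error bars beside them are mean ± SD of 3 libraries, points are single libraries with their numbers. NEIL3, PARP2, XRCC4, POLQ, UNG, XRCC6 and PRKDC lie above every DMSO library with fenbendazole, and NEIL1 lies below.

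Base excision repair genes had values in both directions, 7 with positive and 6 with negative log2 fold changes and a median of 0.094. The glycosylases, which cut out the damaged base, held both extremes. NEIL3 acts on oxidised bases and on crosslinks in single-stranded and forked DNA (ENSG00000109674, chromosome 4, 177309874 to 177362936, plus strand). It stood at 18.2, 16.5 and 19.1 CPM with fenbendazole, against 6.74, 3.64 and 4.98 CPM in DMSO. All fenbendazole values lay above all DMSO values, and the log2 fold change was 1.81 ± 0.261 (SE, adjusted p = 0.0115), or 1.61 without DMSO 11. Its relative NEIL1, which also removes oxidised bases, had the most negative value of the 37 genes (ENSG00000140398, chromosome 15, 75346955 to 75357115, plus strand). NEIL1 stood at 6.75, 5.77 and 3.59 CPM with fenbendazole and 9.14, 16.1 and 11.9 CPM in DMSO. These groups did not overlap, but the log2 fold change of -1.21 ± 0.318 did not pass (adjusted p = 0.0867). Leaving out DMSO 11 gave -0.96 (adjusted p = 0.0172). The value for MAN2C1, which overlaps NEIL1 on the opposite strand by 1909 bases, was -0.55 (adjusted p = 0.272). The third of these relatives, NEIL2, differed by -0.33 ± 0.216 on the log2 scale (adjusted p = 0.413), with overlapping groups.
UNG removes uracil from DNA (ENSG00000076248, chromosome 12, 109097597 to 109110992, plus strand). Its levels were 66.6, 63.4 and 56.3 CPM with fenbendazole and 39.8, 41.9 and 32.7 CPM in DMSO, with no overlap. The log2 fold change of 0.70 ± 0.154 lay just outside the threshold (adjusted p = 0.0509). Leaving out DMSO 11 gave 0.78 (adjusted p = 0.000251). OGG1, which removes oxidised guanine, averaged 15.6 ± 1.28 CPM with fenbendazole and 14.6 ± 1.01 CPM in DMSO (SD, n = 3 each; adjusted p = 0.78). MUTYH, which removes adenine paired with oxidised guanine, stood at 8.61, 11.1 and 9.07 CPM with fenbendazole and 7.63, 16.6 and 7.89 CPM in DMSO. A single library, DMSO 11, set the sign here: the log2 fold change was -0.17 with all libraries and 0.31 (adjusted p = 0.298) without it. NTHL1, a glycosylase for oxidised pyrimidines, had 5.89, 4.76 and 5.36 CPM with fenbendazole and 8.30, 12.2 and 5.65 CPM in DMSO (log2 fold change -0.71 ± 0.307, adjusted p = 0.238).

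Downstream of the glycosylases, PARP2 was the gene that rose. It and PARP1 encode enzymes that mark broken strands with chains of ADP-ribose. PARP2 (ENSG00000129484, chromosome 14, 20343615 to 20357904, plus strand) stood at 47.1, 46.5 and 49.2 CPM with fenbendazole and 22.4, 18.9 and 25.3 CPM in DMSO. The values lay close together within fenbendazole, and the log2 fold change was 1.10 ± 0.161 (SE, adjusted p = 0.0115), or 1.01 without DMSO 11. PARP1, which was more abundant per length (41.6 ± 3.34 FPKM with fenbendazole, against 23.1 ± 0.811 FPKM for PARP2), stood at 197.4, 208.5 and 184.4 CPM with fenbendazole and 150.2, 165.8 and 157.6 CPM in DMSO. Its groups did not overlap, and its log2 fold change was 0.32 ± 0.116 (adjusted p = 0.177; 0.0026 without DMSO 11). The difference between the changes of PARP1 and PARP2 was not tested.
XRCC1, the scaffold of single-strand break repair, stood at 27.3, 27.6 and 22.6 CPM with fenbendazole and 18.3, 25.5 and 16.7 CPM in DMSO, with DMSO 11 inside the range of the treated libraries. Its log2 fold change was 0.36 ± 0.209 (adjusted p = 0.361), and 0.57 (adjusted p = 0.00933) without DMSO 11. LIG3, the ligase that XRCC1 binds, averaged 56.2 ± 1.29 CPM with fenbendazole and 62.8 ± 1.18 CPM in DMSO (SD, n = 3 each). The groups did not overlap, but the log2 fold change of -0.16 ± 0.118 did not pass (adjusted p = 0.461). Log2 fold changes were 0.19 ± 0.18 (adjusted p = 0.569) for POLB, the gap-filling polymerase, and -0.067 ± 0.129 (adjusted p = 0.79) for APEX1.

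Mismatch repair genes had log2 fold changes from -0.10 (MLH3) to 0.69 (PMS1) and a median of 0.18, which was 0.075 without DMSO 11 and -0.0075 with offsets for GC content and length. MSH6 and MSH3 encode the partners that give the recognition complexes their preference for single mismatches or for larger loops. MSH6 stood at 145.1, 137.0 and 151.1 CPM with fenbendazole and 138.8, 102.9 and 123.7 CPM in DMSO, and its log2 fold change was 0.25 ± 0.143 (adjusted p = 0.355). MSH3 stood at 43.4, 41.9 and 40.1 CPM with fenbendazole and 39.7, 30.7 and 40.1 CPM in DMSO (log2 fold change 0.18 ± 0.159, adjusted p = 0.53). The values of DMSO 12 and fenbendazole 9 were nearly equal for MSH3.
PMS1, PMS2 and MLH3 encode proteins related to each other, of which PMS2 and MLH3 have a nuclease motif. PMS1 stood at 46.1, 36.3 and 51.2 CPM with fenbendazole and 24.9, 14.7 and 43.3 CPM in DMSO. DMSO 12 lay within the treated range, and the log2 fold change was 0.69 ± 0.367 (adjusted p = 0.315), with 0.40 without DMSO 11 and 1.18 without DMSO 12. PMS2, whose reads may be shared with its pseudogenes, averaged 21.7 ± 1.79 CPM with fenbendazole and 20.9 ± 2.04 CPM in DMSO (SD, n = 3 each). MLH3 stood at 37.8, 36.7 and 37.5 CPM with fenbendazole and 48.9, 29 and 42.5 CPM in DMSO. Without DMSO 11 its log2 fold change was -0.29 (adjusted p = 0.068).

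**Figure D3:**
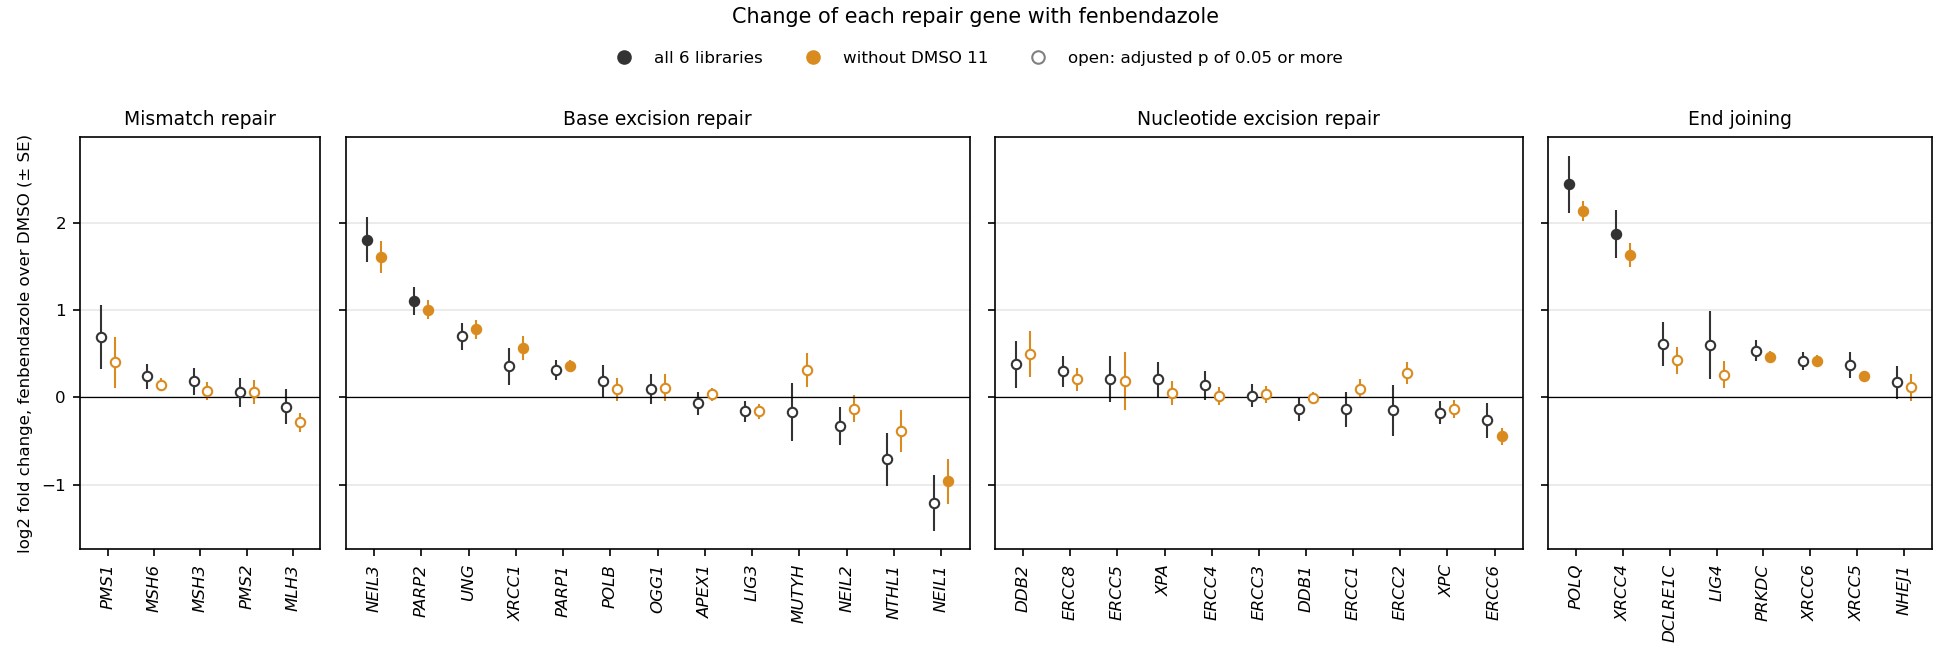
Log2 fold change of each repair gene, fenbendazole over DMSO, with SE, by route and ordered by value. Dark points use all 6 libraries and orange points leave out DMSO 11, and filled points passed an adjusted p of 0.05. With all libraries POLQ, XRCC4, NEIL3 and PARP2 are filled, and 12 genes are filled without DMSO 11.

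Nucleotide excision repair genes lay between -0.26 (ERCC6) and 0.38 (DDB2) on the log2 scale, with a median of 0.021, which was -0.048 with upper-quartile scaling and 0.054 without DMSO 11. DDB2 and DDB1 form the sensor of ultraviolet damage, and XPC finds lesions across the genome. DDB2 stood at 8.47, 4.91 and 6.48 CPM with fenbendazole and 4.4, 5.79 and 5.06 CPM in DMSO (log2 fold change 0.38 ± 0.271, adjusted p = 0.446). DDB1 averaged 276.0 ± 7.89 CPM with fenbendazole and 301.9 ± 43.4 CPM in DMSO (SD, n = 3 each; adjusted p = 0.608). XPC was the gene of this route whose groups did not overlap, at 39.6, 42.9 and 38.7 CPM with fenbendazole and 43.5, 48.0 and 45.3 CPM in DMSO, and its log2 fold change was -0.17 ± 0.134 (adjusted p = 0.48). ERCC6 and ERCC8 encode the Cockayne syndrome proteins, which act where RNA polymerase stalls. ERCC6 stood at 45.5, 43.3 and 40.3 CPM with fenbendazole and 58.4, 37.0 and 59.5 CPM in DMSO. DMSO 11 lay below the treated libraries while DMSO 10 and 12 lay above them, and the log2 fold change of -0.26 ± 0.204 (adjusted p = 0.486) was -0.45 (adjusted p = 0.0046) without DMSO 11. ERCC8 differed by 0.30 ± 0.177 on the log2 scale (adjusted p = 0.361).
The helicases of TFIIH, which open the DNA, are encoded by ERCC2 and ERCC3. ERCC3 averaged 65.6 ± 2.21 CPM with fenbendazole and 64.6 ± 6.61 CPM in DMSO (SD, n = 3 each) and differed by 0.021 ± 0.132 on the log2 scale (adjusted p = 0.94). ERCC2 stood at 25.2, 26.0 and 22.2 CPM with fenbendazole and 20.5, 40.6 and 19.9 CPM in DMSO. Its log2 fold change was -0.15 with all libraries and 0.28 (adjusted p = 0.139) without DMSO 11. The nuclease genes ERCC1, ERCC4 and ERCC5 and the damage checker XPA had log2 fold changes of -0.14, 0.14, 0.21 and 0.21, each with overlapping groups. ERCC1 shares 3404 bases with POLR1G on the opposite strand, which rose by 1.20 on the log2 scale (adjusted p = 0.0494), and ERCC5 shares its full span with the readthrough gene BIVM-ERCC5, so their counts are uncertain.

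The 11 repair genes that lay above DMSO in every fenbendazole library (29.7%) and the 3 that lay below (8.11%) compare with 17.0% and 15.5% of all tested genes. Those above were MSH3, UNG, NEIL3, PARP1, PARP2, XRCC4, XRCC5, XRCC6, PRKDC, DCLRE1C and POLQ, and those below NEIL1, LIG3 and XPC. Without DMSO 11, 12 of 37 repair genes (32.4%) passed the threshold, against 22.3% of all genes. Higher in that fit were UNG, NEIL3, XRCC1, PARP1, PARP2, XRCC4, XRCC5, XRCC6, PRKDC and POLQ, and lower were NEIL1 and ERCC6. Because the control that deviates most is then missing, the spread among controls may be understated there. Leaving out fenbendazole 7, 8 or 9 ended all 4 calls made with the full set: the adjusted p ran over 0.0559 to 0.0831 without library 7, over 0.0506 to 0.0767 without library 8 and over 0.0557 to 0.0924 without library 9. PARP2 and XRCC4 also missed the threshold without DMSO 10 (adjusted p = 0.0595 and 0.0605). Over all genes 0.807%, 0.831%, 0.838% and 1.57% passed without fenbendazole 7, 8, 9 and DMSO 10. The log2 fold changes over the fits that leave out 1 library stayed between 2.14 and 2.67 for POLQ, 1.63 and 2.12 for XRCC4, 1.61 and 2.06 for NEIL3 and 1.01 and 1.21 for PARP2.

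The deviation of DMSO 11 followed base composition across the repair genes. In 18 of the 37 genes DMSO 11 was the lowest of the DMSO libraries, and the longest transcripts of these had a median GC content of 41.5% (36.2% to 50.7%). In 13 genes it was the highest, with a median of 55.3% (49.6% to 63.8%). LIG4, at 36.2% GC, stood at 0.348 times the mean of DMSO 10 and 12 in DMSO 11, and POLQ, at 41.1%, at 0.424 times. MUTYH, at 60.5%, stood at 2.14 times and ERCC2, at 60.0%, at 2.01 times. Across the 37 genes, which share this library, the log2 difference of DMSO 11 from the other DMSO libraries had a Pearson r of 0.93 and a Spearman rho of 0.96 with GC content, and across all 16975 genes with a GC value these were 0.77 and 0.80. The log2 fold changes had a Pearson r of -0.57 with GC content across the 37 genes with all libraries and -0.34 without DMSO 11, and across all genes -0.41 and -0.036. The matching Spearman rho was -0.54 and -0.20 across the 37 genes, and -0.45 and -0.031 across all genes. The 4 genes that rose had a GC content of 36.7% to 45.3%. With offsets for GC content and length they changed by 2.36 (POLQ), 1.59 (XRCC4), 1.59 (NEIL3) and 1.01 (PARP2) on the log2 scale, and all 4 passed, as did 21% of all genes.

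**Figure D4:**
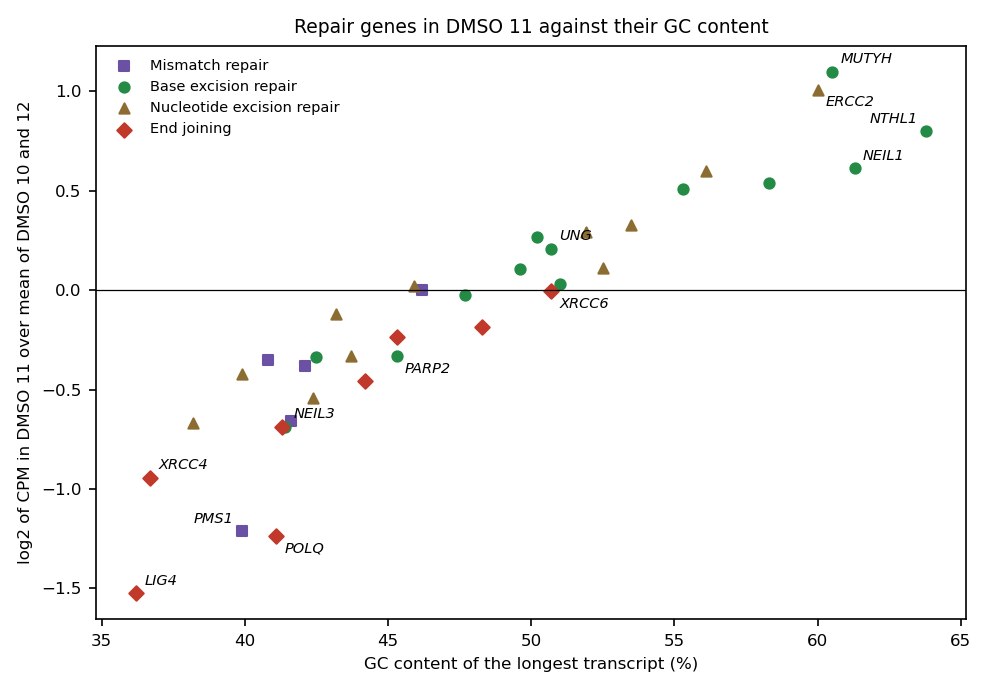
Each point is 1 of the 37 repair genes, with the GC content of its longest transcript in percent on the horizontal axis and the log2 ratio of its CPM in DMSO 11 over the mean of DMSO 10 and 12 on the vertical axis. Symbols give the route. LIG4, POLQ and PMS1 lie lowest and MUTYH and ERCC2 highest.

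The rest of the 4 routes, 64 further genes of which 63 were tested, held 12 that rose and 0 that fell. Over all genes 3.11% rose and 0.921% fell. These further genes were listed with earlier results of these data known, so the comparison is a description and not independent evidence. The median difference of the 63 was 0.29 on the log2 scale. Of 17 further mismatch repair genes, most of which also act at the replication fork while MSH5 (known from meiosis) and HMGB1 (a chromatin protein) are counted with them, 9 rose, HMGB1 among them. EXO1, a nuclease that removes the mismatched strand, rose to 30.7 ± 2.66 CPM with fenbendazole, against 8.23 ± 1.05 CPM in DMSO (SD, n = 3 each). PCNA, the sliding clamp, stood at 124.0 ± 5.13 CPM with fenbendazole and 51.5 ± 4.30 CPM in DMSO, and RFC5, a subunit of its loader, at 57.8 ± 1.78 CPM with fenbendazole and 24.6 ± 0.985 CPM in DMSO. Of 16 further base excision repair genes 3 rose: FEN1, the flap nuclease (log2 fold change 1.31 ± 0.167), and POLE3 (0.93 ± 0.125) and POLE2 (1.62 ± 0.277), subunits of polymerase epsilon. None of 17 further nucleotide excision repair and 15 further end joining genes passed the threshold by edgeR, and their medians were 0.21 and -0.14. In that test 1 and 5 of them had an unadjusted p under 0.05, against 3699 of all 17363 genes. The 5 end joining genes lay in both directions. Of the 15, 3 lay above DMSO in every fenbendazole library and 3 below, against 17.0% and 15.5% of all tested genes. Without DMSO 11 the median of these 15 end joining genes was 0.19, so its sign turned with that library. In that fit 28 of the 63 rose and 4 fell, against 13.1% and 9.23% of all genes. Without fenbendazole 7, 8 or 9, 3 passed each time, against 0.807%, 0.831% and 0.838% of all genes. Without DMSO 10 there were 7, against 1.57%.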

How the data were processed

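Raw whole-number counts per gene and FPKM values for each of the 6 libraries were deposited in 1 table, per the file headers. Per the submitters' processing notes, the build was GRCh38 and the tools included HISAT2 2.1.0 and StringTie 1.3.4b. Which program counted reads, with what strand setting and annotation, is not given in the sources used here. Libraries carry the numbers of their titles.

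All genes of the table were fitted here as counts in R 4.3.3 with edgeR 4.0.16 (TMM scaling, filterByExpr, robust quasi-likelihood F test). P-values were adjusted by Benjamini-Hochberg over 17363 genes, with a threshold of 0.05. SEs were derived from the F statistic. The fit was tested on simulated data. No pair of replicates matched within sampling noise (lowest chi-square per degree of freedom 5.34). GC content came from the longest transcript in GENCODE v29 and covered 97.8% of tested genes. Start regions are RefSeq sequences of GRCh38.p14.

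Alternatives were DESeq2 1.42.0, scaling by upper quartile or median of ratios, omission of the filter, limma 3.58.1 (voom with and without library quality weights, and log2 of FPKM plus 1 for genes with a mean of at least 1 FPKM), offsets for GC content and length (splines with 5 degrees of freedom), an adjusted p of 0.01 and leaving out each library. The members, lists and settings were chosen with earlier results of these data known. Named genes were all members, with values per library for those past the threshold, those with the largest change in each route, those of the highest and lowest FPKM, and further members chosen after their values were seen, and up to 3 further genes of each route with the smallest p among those past the threshold. Plots come from Python 3.11.15 with matplotlib 3.10.9.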

Additional observations from a re-analysis of the deposited data

How the results depend on the processing

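No paired analysis was possible because each library number occurs in 1 group alone. POLQ, XRCC4, NEIL3 and PARP2 passed under every scaling, filter, tool and offset tried, and only POLQ passed at an adjusted p of 0.01. DESeq2 called 1963 genes over the table in place of 700, quality weights 4587 (weight of DMSO 11 0.074), GC and length offsets 3570 and an adjusted p of 0.01 gave 210, and leaving out 1 library gave 147 to 3946. Against 4 repair genes higher and 0 lower, DESeq2 gave 7 and 1 (background 6.65% and 4.65%), quality weights 10 and 3 (14% and 12.4%), GC and length offsets 10 and 2 (11.4% and 9.64%), and an adjusted p of 0.01 gave 1 higher; leaving out 1 library gave 0 to 10 higher and 0 to 2 lower. By route, against 2 in base excision repair and 2 in end joining, DESeq2 gave 4 and 4, quality weights 6 and 5, the offsets 6 and 5, an adjusted p of 0.01 gave 0 and 1, and leaving out 1 library 0 to 6 and 0 to 5. Quality weights also gave 1 in mismatch repair (MLH3) and 1 in nucleotide excision repair (ERCC6), and the offsets 1 in nucleotide excision repair (ERCC6); leaving out 1 library gave 0 to 1 there. Of the 64 further genes 12 passed (background 4.03%), and 3 to 32 when 1 library was left out (background 0.807% to 22.3%).

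Signs turned only in genes that did not pass in either fit. With quality weights the log2 fold changes were -0.022 (PMS2), -0.021 (ERCC3), 0.27 (MUTYH), 0.0036 (APEX1), 0.041 (ERCC1) and 0.25 (ERCC2). With GC and length offsets they were -0.0075 (MSH3), -0.037 (PMS2), 0.24 (MUTYH), 0.043 (ERCC1), 0.23 (ERCC2), -0.068 (ERCC3) and -0.062 (ERCC4). Upper-quartile scaling gave -0.012 (PMS2) and -0.048 (ERCC3), and FPKM gave -0.010 (PMS2), -0.0022 (OGG1) and -0.11 (ERCC3). Leaving out 1 library gave -0.29 to 0.065 (MLH3), -0.0062 to 0.13 (PMS2), -0.36 to 0.31 (MUTYH), -0.13 to 0.035 (APEX1), -0.25 to 0.10 (ERCC1), -0.32 to 0.28 (ERCC2), -0.048 to 0.093 (ERCC3) and -0.052 to 0.40 (ERCC5). The cause of these changes of sign was not tested. The lowest count of a repair gene in a library was 61, and no fit at a reduced depth was made.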
